A study of Mus musculus with 6 samples.

Results

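The miRNAs described here are 9 mature miRNAs of striated muscle found in small RNA libraries of mouse spinal cord: mmu-miR-1a-3p, mmu-miR-1a-1-5p, mmu-miR-1b-5p, mmu-miR-133a-3p, mmu-miR-133a-5p, mmu-miR-133b-3p, mmu-miR-206-3p, mmu-miR-208b-3p and mmu-miR-499-5p. The prefix for mouse is left off below. They were chosen by name, as miRNAs used to notice muscle carried along with the cord, and all 9 were among the 1482 rows of the deposited table. The series compared 3 libraries labelled SCI (spinal cord injury) with 3 labelled control. SCI mice had a laminectomy at T10 and then a moderate contusion there, from a 10 g weight dropped 20 mm. Control mice are described as having the laminectomy without the contusion, so by that description opened vertebrae are common to both groups. The names of the deposited columns, given below, leave this uncertain. All mice weighed 20 to 25 g, were killed on day 2 after surgery and gave about 1 cm of cord around T10. The sources used here give no strain or age.

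These miRNAs are known as myomiRs. miR-1 and miR-133a are made from shared transcripts in skeletal and heart muscle, where miR-1 promotes differentiation and miR-133a acts on proliferation of precursors and on muscle gene programmes. miR-206 and miR-133b come from another shared transcript, and miR-206 is largely restricted to skeletal muscle, where in mice it takes part in repair of nerve-muscle contacts and in regeneration. miR-208b and miR-499 lie in introns of myosin heavy chain genes of slow and heart muscle. They are used as markers of muscle rather than of neural tissue. Laminectomy reaches the vertebrae through the paraspinal muscles. The source of the reads was not tested.

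A RefSeq sequence was at hand for 5 of the 9 (build GRCm38.p6). They are shown because the results below set members of different seed families, and of the same transcript, against each other. Each is written 5′ to 3′ with the seed, bases 2 to 8, in capitals.
miR-206-3p: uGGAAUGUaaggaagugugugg
miR-1a-1-5p: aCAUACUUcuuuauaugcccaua
miR-133b-3p: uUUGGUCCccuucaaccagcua
miR-499-5p: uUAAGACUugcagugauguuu
miR-208b-3p: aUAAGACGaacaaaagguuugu
The seeds of miR-499-5p and miR-208b-3p were equal at 6 of 7 bases. No other pair among these was equal at more than 3 of 7. miR-1a-3p is known to carry the seed of miR-206-3p, and miR-133a-3p that of miR-133b-3p.

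The hairpins of Mir206 (chr1:20679010-20679082, plus strand) and Mir133b (chr1:20682769-20682887, plus strand) overlap exons of the long noncoding RNA gene Gm28653 in GENCODE M21 and lie 3686 bases apart. Mir499 (chr2:155622880-155622958, plus strand) lies within an intron of Myh7b, and Mir208b (chr14:54975700-54975776, minus strand) within an intron of Myh7. Mir1a-1 (chr2:180389048-180389124) and Mir133a-2 (chr2:180398379-180398482) are neighbours on the plus strand of chromosome 2, 9254 bases apart. The hairpins of the 3 more abundant members with a RefSeq hairpin sequence are printed with the mature arms in capitals, the 5p arm first.
Mir206: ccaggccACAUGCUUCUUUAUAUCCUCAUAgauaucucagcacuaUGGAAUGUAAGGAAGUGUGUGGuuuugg
Mir133b: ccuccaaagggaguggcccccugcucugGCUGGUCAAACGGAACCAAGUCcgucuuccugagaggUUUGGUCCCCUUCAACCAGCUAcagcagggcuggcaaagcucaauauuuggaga
Mir499: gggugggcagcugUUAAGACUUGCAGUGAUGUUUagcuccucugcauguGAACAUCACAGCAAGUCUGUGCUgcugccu
Nearly all reads of each of these hairpins came from one arm. Over all 6 libraries Mir206 gave 11236 counts of its 3p arm and 1 of its 5p arm, and Mir133b gave 1769 of its 3p arm and 1 of its 5p arm. Mir499 had the opposite order, with 1640 counts of its 5p arm and 1 of its 3p arm. Mir208b, not shown, had only 5 counts of its 3p arm and 1 of its 5p arm.

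Total counts per library were 7100472 to 8889977 in the SCI-labelled and 5568491 to 7360149 in the control-labelled group. Neural and spinal miRNAs were abundant in every library. miR-9-5p, made by neural cells, was at 90727 to 102142 CPM in the SCI-labelled and 53348 to 80049 CPM in the control-labelled libraries (CPM: reads of a miRNA over all reads of the library, scaled to a common size by edgeR's TMM method). miR-10b-5p, encoded in a Hox cluster and abundant in spinal cord, was at 132934 to 175935 CPM in the SCI-labelled and 53273 to 80640 CPM in the control-labelled libraries. All 9 listed miRNAs of injury and leukocytes passed edgeR's test as lower in the SCI-labelled group, against 23.1% of all rows tested. They are miRNAs described as rising after cord injury, and the deposited columns of the SCI-labelled libraries have names that begin with Normal. The groups are therefore called by their labels, and every direction is that of the labels as deposited. Control-labelled library 3 stood apart from the other libraries of its group, and results that rest on it are given with and without it. That the libraries of a group come from separate mice is taken from the design text.

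miR-1a-3p, the most abundant myomiR in every library, was counted 75764, 128424 and 129421 times in SCI-labelled libraries 1, 2 and 3, against 50120, 64196 and 298882 times in control-labelled libraries 1, 2 and 3. The SCI-labelled counts thus lay between those of control-labelled libraries 1 and 2 and that of library 3, and the groups overlapped. After scaling, SCI-labelled library 1, at 9388 CPM, lay below control-labelled library 2, at 11622 CPM. As a TMM-scaled level it was at 14652 ± 5260 CPM in the SCI-labelled and 18281 ± 14758 CPM in the control-labelled group (SD, n = 3 each). Its log2 fold change, SCI-labelled over control-labelled, was -0.32 with a standard error of 0.52, and it did not pass edgeR's quasi-likelihood test (adjusted p = 0.659). miR-1a-3p made up 93.0% to 97.3% of the reads of the listed miRNAs in each library when miR-1b-5p was set aside. Read counts of different miRNAs also carry the unequal capture of sequences that small RNA ligation is known for.

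The row of miR-1b-5p is not a separate measurement. It held 75732, 128339 and 129346 counts in the SCI-labelled and 50116, 64181 and 298714 in the control-labelled libraries, which is 4 to 168 counts fewer than miR-1a-3p in the same library. The paralogs of the chromosome 2 hairpins, Mir1a-2 and Mir133a-1, are neighbours on the minus strand of chromosome 18. GENCODE M21 places Mir1b on the plus strand there, over the whole 72 bases of Mir1a-2. The other arms of these hairpins had equal counts: miR-1a-2-5p and miR-1b-3p each had 1, 2 and 9 counts in the SCI-labelled and 1, 0 and 3 in the control-labelled libraries. The sources used here do not give how strand and reads with several matches were treated. The reads cannot be told apart between the members of these pairs, and miR-1b-5p is read below as a copy of miR-1a-3p.

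miR-1a-1-5p is the passenger arm of the chromosome 2 copy, and had few reads: 14, 13 and 15 counts in the SCI-labelled and 3, 5 and 40 in the control-labelled libraries. Its values in the SCI-labelled libraries lay above control-labelled libraries 1 and 2 and below library 3. Its log2 fold change was -0.26 (standard error 0.70), with an adjusted p of 0.779 by edgeR.

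miR-133a-3p, the main mature form of the miR-133a hairpins, was nearly constant in one group and spread widely in the other. It had 2773, 2306 and 3159 counts in the SCI-labelled libraries, against 804, 947 and 13426 counts in the control-labelled ones. As levels these were 344, 357 and 358 CPM in the SCI-labelled and 129, 171 and 1581 CPM in the control-labelled libraries. The coefficient of variation over 3 libraries was 2.30% in the SCI-labelled and 132% in the control-labelled group. The log2 fold change was -0.83 (standard error 0.84; edgeR adjusted p = 0.470), and DESeq2 returned no adjusted p for this row.

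The passenger arm miR-133a-5p had 50, 52 and 61 counts in the SCI-labelled and 21, 33 and 430 in the control-labelled libraries. miR-133b-3p, whose mature sequence is nearly that of miR-133a-3p, had 309, 192 and 195 counts in the SCI-labelled and 64, 75 and 934 in the control-labelled libraries. Both showed the order of miR-133a-3p: control-labelled libraries 1 and 2 were lowest, library 3 was highest, and the SCI-labelled libraries lay between. Their log2 fold changes were -1.53 (standard error 0.87) for miR-133a-5p and -0.58 (standard error 0.80) for miR-133b-3p, with edgeR adjusted p-values of 0.209 and 0.602. Reads could be split between miR-133a-3p and miR-133b-3p by the authors' counting, so the level of miR-133b-3p is uncertain.

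miR-206-3p, the skeletal muscle miRNA, had another order. It was counted 381, 830 and 1136 times in the SCI-labelled and 743, 604 and 7542 times in the control-labelled libraries. Its level was 47.2, 129 and 129 CPM in the SCI-labelled libraries, against 119, 109 and 888 CPM in the control-labelled ones. SCI-labelled library 1 was the lowest of all 6, and SCI-labelled libraries 2 and 3 were near control-labelled libraries 1 and 2. The log2 fold change was -1.88 (standard error 0.82), the largest in size among the tested muscle miRNAs, and it missed the threshold (edgeR adjusted p = 0.110).

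miR-499-5p, the miRNA of the slow myosin gene Myh7b, was the only one of the 9 that passed the test. It had 407, 238 and 445 counts in the SCI-labelled and 159, 106 and 285 in the control-labelled libraries. Its level was 50.4, 36.9 and 50.4 CPM in the SCI-labelled libraries, against 25.5, 19.2 and 33.6 CPM in the control-labelled ones, and the groups did not overlap. miR-499-5p was 1.76-fold higher in the SCI-labelled group (log2 0.81, standard error 0.26; edgeR adjusted p = 0.0361). It did not pass when SCI-labelled library 1 (edgeR adjusted p = 0.114) or 3 (0.123) was left out, without control-labelled library 1 (0.0566) or 2 (0.105), and with library totals in place of TMM (0.104), over a range of 0.00271 to 0.123 in 15 alternatives. Its sign was positive in all 15.

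miR-208b-3p, the miRNA of Myh7, was at the limit of detection. It had 0, 1 and 0 counts in the SCI-labelled and 1, 0 and 3 in the control-labelled libraries. A count of 0 allows up to 3 counts, which is 0.340 to 0.372 CPM in the SCI-labelled libraries without a read and 0.543 CPM in the control-labelled one. These limits cover counting error only. It did not pass the filter on low counts, so no test or fold is given. The related heart miRNA miR-208a had 0, 1 and 0 counts of its 5p arm in the SCI-labelled and 1, 0 and 2 in the control-labelled libraries, and 1 count of its 3p arm in all, in control-labelled library 3.

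**Figure D1:**
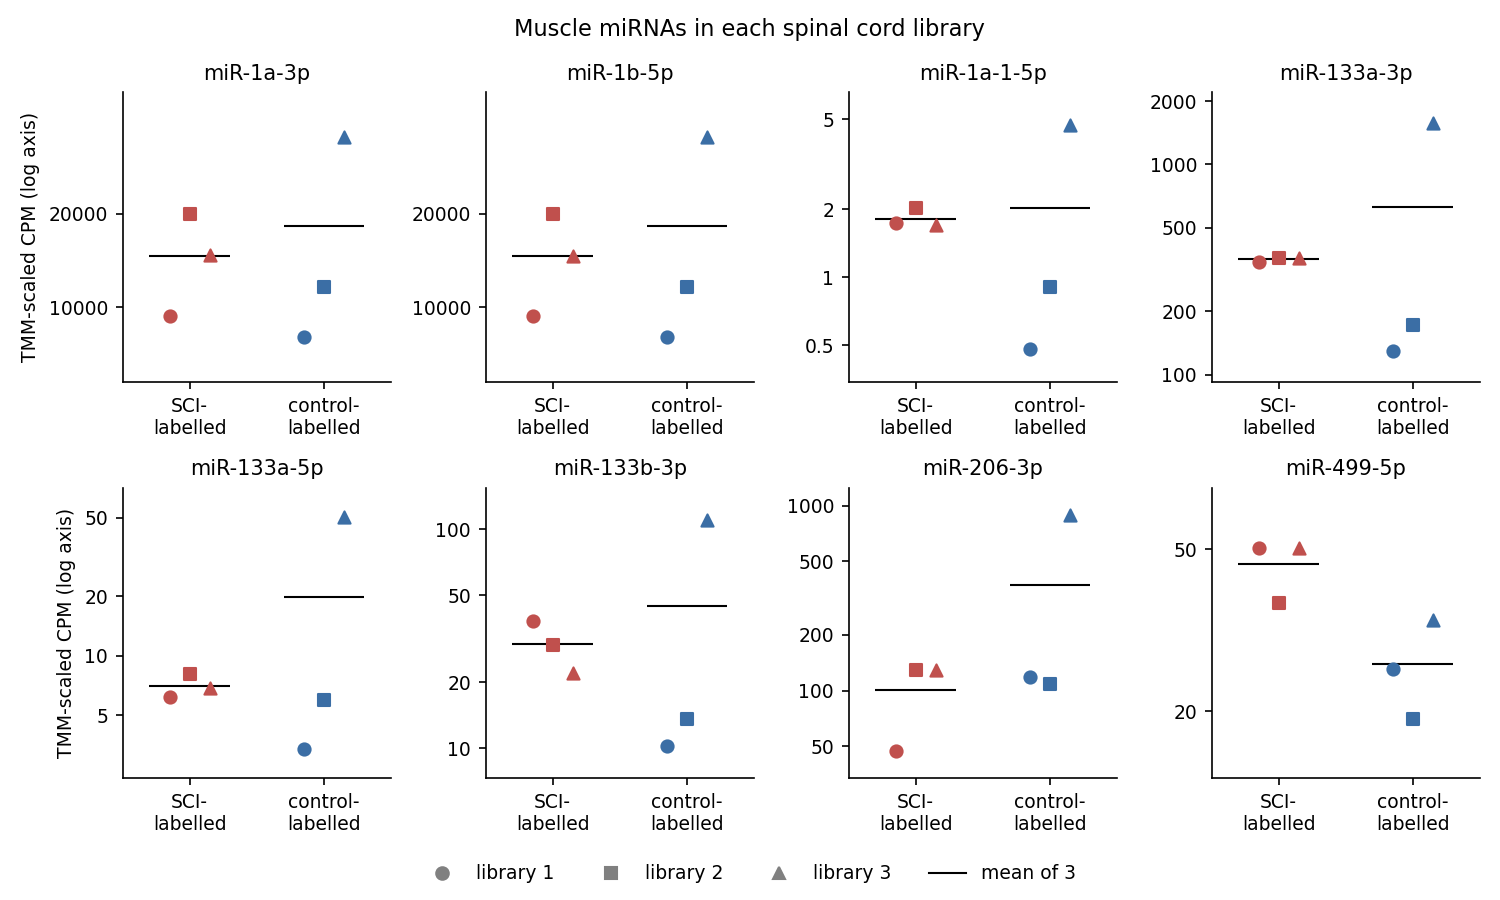
Level of each of the 8 tested muscle miRNAs in every library, in TMM-scaled CPM on a log axis whose range differs between panels. SCI-labelled libraries are on the left and control-labelled ones on the right, symbols mark the library number and lines the mean of 3. In 7 panels control-labelled library 3 is the highest of all 6 libraries, while miR-499-5p is highest in the SCI-labelled libraries.

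Of the 8 muscle miRNAs tested, 1 was higher in the SCI-labelled group, 0 were lower and 7 did not pass edgeR's test, where 39.4% of all 614 rows tested were called, 16.3% as higher and 23.1% as lower. At an unadjusted p under 0.05 by edgeR there was 1 of the 8, miR-499-5p, against 285 of all 614 rows tested. DESeq2 and limma voom likewise called 0 of the 8 lower. Their median log2 fold change was -0.45, against -0.07 over all tested rows. The sign of 7 of the 8 was negative, and for 6 of those it rested on control-labelled library 3. The median and the numbers out of 8 count miR-1b-5p beside miR-1a-3p, whose reads it repeats.

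Without control-labelled library 3, 7 of 8 had a positive log2 fold change and 4 passed edgeR's test as higher in the SCI-labelled group, against 24.0% of the 634 rows then tested called higher and 28.2% called lower. The 4 were miR-133a-3p (log2 1.28, edgeR adjusted p = 0.000224), miR-133b-3p (1.38, 0.00138), miR-1a-1-5p (1.42, 0.0336) and miR-499-5p (1.08, 0.00271). Among them, miR-1a-1-5p rests on 14, 13 and 15 counts in the SCI-labelled libraries against 3 and 5 in control-labelled libraries 1 and 2. Reads could be split between miR-133b-3p and miR-133a-3p, so these may not be separate calls. miR-1a-3p stood at 0.62 (edgeR adjusted p = 0.0798) and miR-133a-5p at 0.64 (0.0950). The exception was miR-206-3p at -0.13 (0.759). The median of the 8 was then 0.86, against 0.08 over all rows. Here too the median and the numbers out of 8 count miR-1b-5p beside miR-1a-3p. That fit kept only control-labelled libraries 1 and 2. The library left out had been seen to stand apart and was the highest for 7 of the 8, so these values are a description. Over the alternatives, 15 for each but 14 for miR-133a-3p, which has none from DESeq2, the adjusted p ran from 0.000224 to 0.842 for miR-133a-3p, from 0.00138 to 0.806 for miR-133b-3p, from 0.0336 to 0.919 for miR-1a-1-5p and from 0.0528 to 0.759 for miR-206-3p. For miR-1a-3p it ran from 0.0798 to 0.944, and for miR-133a-5p from 0.0588 to 0.813.

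**Figure D2:**
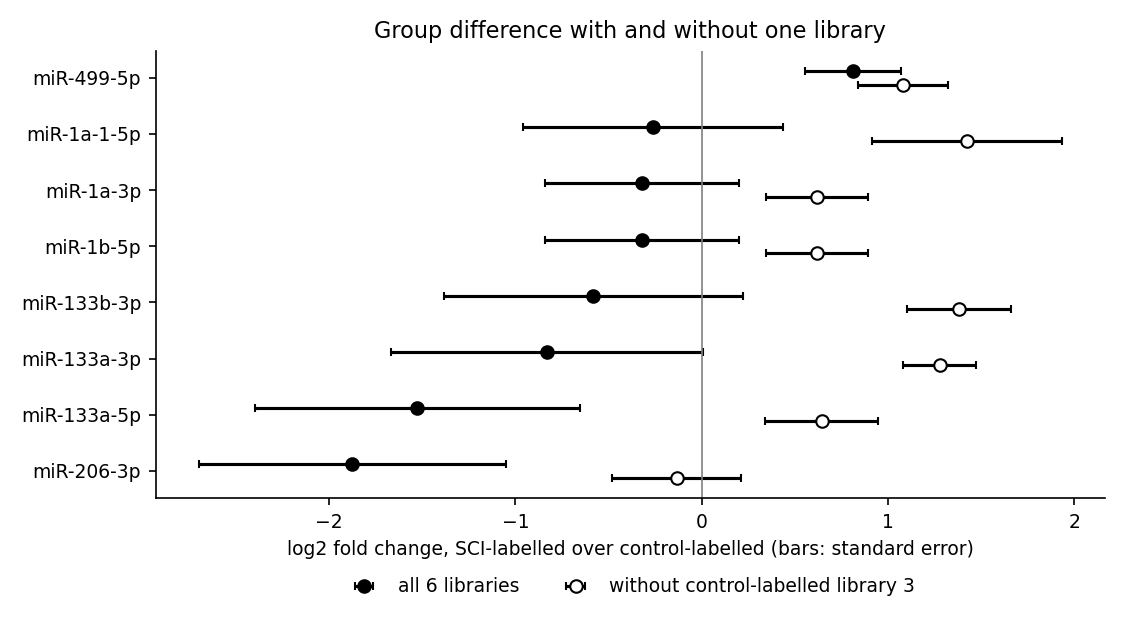
Log2 fold change of each tested muscle miRNA, SCI-labelled over control-labelled, with its standard error, from all 6 libraries (filled) and without control-labelled library 3 (open). Values move to the right of 0 without that library for 6 miRNAs, counting miR-1b-5p, which repeats miR-1a-3p. miR-206-3p is at -1.88 with that library and at -0.13 without it, and miR-499-5p is above 0 in both.

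The excess in control-labelled library 3 was unequal between muscle miRNAs. Set against the mean of control-labelled libraries 1 and 2, that library held 10.8 times as much miR-133a-5p, 10.5 times as much miR-133a-3p and 9.23 times as much miR-133b-3p. The ratio was 7.78 for miR-206-3p, 6.80 for miR-1a-1-5p and 3.58 for miR-1a-3p, and 1.5 for miR-499-5p. A ratio of 3 or more was seen in 7 of the 8, counting miR-1b-5p, against 3.09% of all tested rows, and the median ratio over all rows was 0.962. The comparison was made after the library had been seen to stand apart and has a single library on one side, so it is a description.

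Other markers moved in the same library. The neuron list of 7 miRNAs took 10.9% of counts in control-labelled library 3, against 7.12% and 6.55% in libraries 1 and 2, and 11.6% to 14.3% in the SCI-labelled group. Its most abundant member, miR-9-5p, was at 80049 CPM there, against 59415 and 53348 CPM. miR-124-3p, miR-137-3p and miR-138-5p were also highest of the control-labelled group there. miR-128-3p, at 3733 CPM against 4462 and 4854 CPM, and miR-129-5p, at 976 CPM against 1344 and 986 CPM, were lowest there. miR-218-5p, at 7527 CPM there, lay between libraries 1 and 2, at 9047 and 5934 CPM. The erythroid list of 3 took 0.816% there, against 2.60% and 1.92% in libraries 1 and 2, and 0.188% to 0.464% in the SCI-labelled group. The injury and leukocyte list of 9 took 9.02% there, against 12.6% and 10.0%, and 1.14% to 1.41% in the SCI-labelled group. The smooth muscle miRNAs miR-143 and miR-145a, a list of 4, took 1.02% there, against 1.66% and 1.34%, and 1.29% to 1.41% in the SCI-labelled group. Most reads of that list were miR-143-3p, at 8276 CPM there, against 17011 and 13128 CPM. The other members were highest of the control-labelled group there: miR-145a-5p at 398 CPM (against 346 and 237), miR-145a-3p at 119 (114 and 112) and miR-143-5p at 46.7 (43.9 and 31.3). The most abundant members of all these lists had reads in every library, and the part of these cell types in the muscle miRNA values was not tested. In bulk tissue fewer cells of a type and less RNA per cell cannot be told apart.

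**Figure D3:**
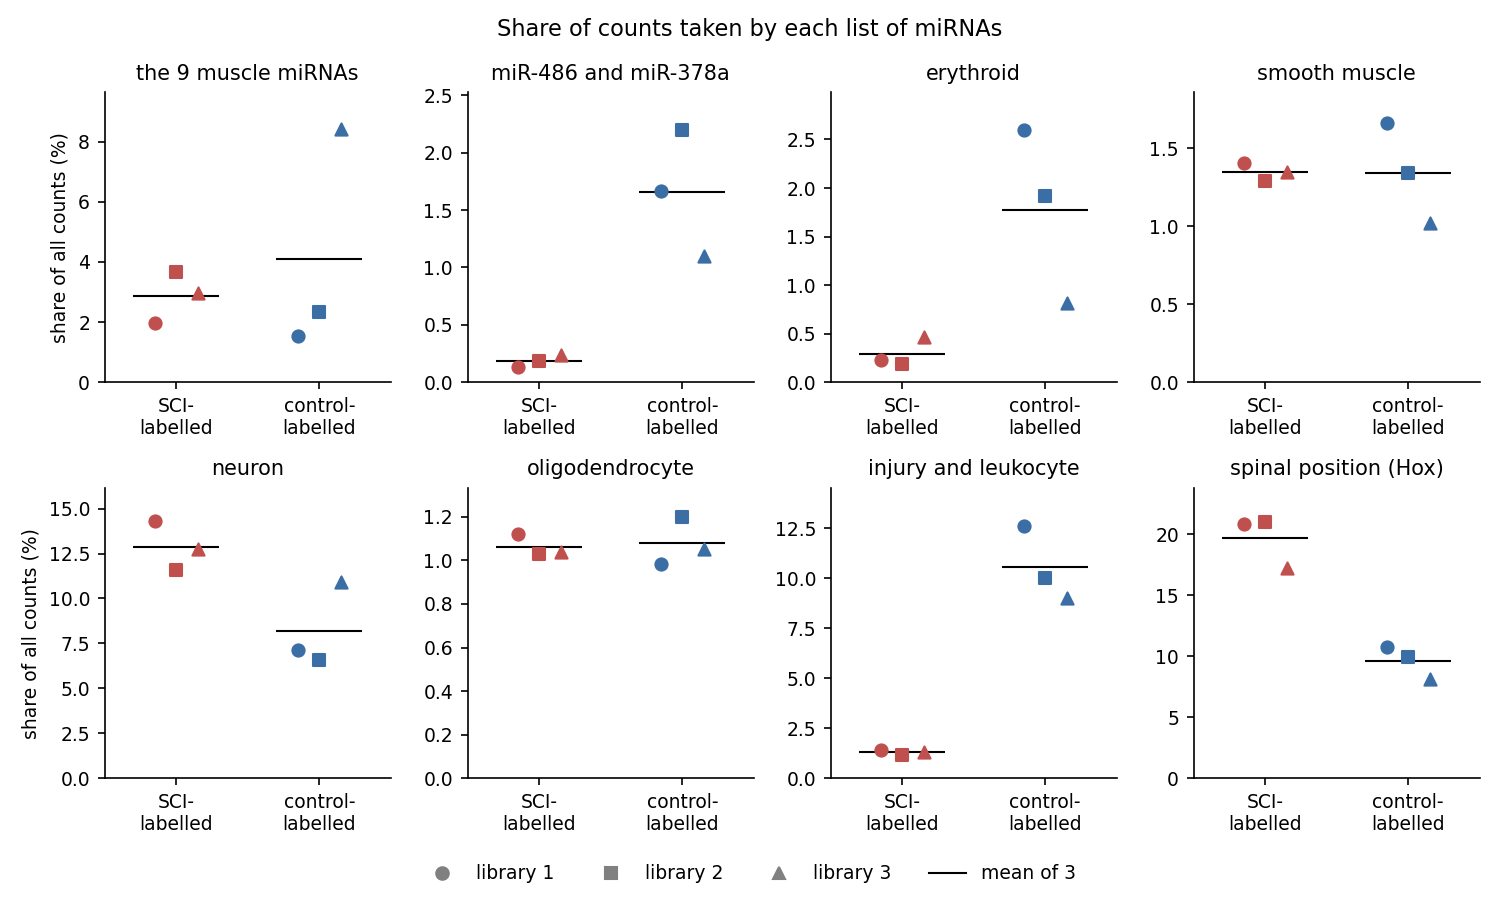
Share of all counts, in percent, taken by the 9 muscle miRNAs and by 7 other lists in each library, with SCI-labelled libraries on the left, control-labelled ones on the right and lines at the mean of 3. Control-labelled library 3 holds 8.43% of its counts in the muscle miRNAs, above every other library. That share counts miR-1b-5p, which repeats miR-1a-3p, and is 4.37% without it. The library holds less of the erythroid list than the other control-labelled libraries.

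The 9 miRNAs together took 1.97%, 3.67% and 2.97% of counts in the SCI-labelled libraries, against 1.55%, 2.34% and 8.43% in the control-labelled ones. The groups overlapped, and an exact two-sided permutation test on the log2 share gave p = 0.9, where 3 libraries against 3 can reach no less than 0.1. As miR-1b-5p repeats miR-1a-3p, the share without it was 1.01%, 1.86% and 1.51% in the SCI-labelled and 0.787%, 1.18% and 4.37% in the control-labelled libraries. With both set aside, the remaining 7 took 0.0498%, 0.0512% and 0.0564% in the SCI-labelled libraries, against 0.0272%, 0.0318% and 0.308% in the control-labelled ones.

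Ratios of counts within a library need no scaling between libraries, and 5 were tested. The ratio of miR-206-3p to miR-133a-3p was 0.137, 0.360 and 0.360 in the SCI-labelled libraries, against 0.924, 0.638 and 0.562 in the control-labelled ones. Every control-labelled library, library 3 included, lay above every SCI-labelled one. The means were 0.286 ± 0.128 in the SCI-labelled and 0.708 ± 0.191 in the control-labelled group (SD, n = 3 each), a log2 difference of -1.41, with an exact two-sided permutation p of 0.1, the smallest possible, and 0.25 after Benjamini-Hochberg adjustment over the 5 ratios. With any 1 library left out the log2 difference ran from -1.64 to -0.94.

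The ratio of the passenger arm miR-133a-5p to miR-133a-3p also separated the groups. Per 1000 counts of the 3p arm there were 18.0, 22.5 and 19.3 of the 5p arm in the SCI-labelled libraries, against 26.1, 34.8 and 32.0 in the control-labelled ones. The log2 difference was -0.63, in the same direction without any 1 library (-0.75 to -0.54), with an exact permutation p of 0.1 and 0.25 after adjustment. The 5p arm rests on 21 to 61 counts in all libraries but control-labelled library 3.

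The ratio of miR-133b-3p to miR-133a-3p overlapped between the groups. Per 1000 counts of miR-133a-3p there were 111, 83.3 and 61.7 of miR-133b-3p in the SCI-labelled and 79.6, 79.2 and 69.6 in the control-labelled libraries (exact permutation p = 0.7, 0.8 adjusted). The ratio of miR-1a-3p to miR-133a-3p was 27.3, 55.7 and 41.0 in the SCI-labelled and 62.3, 67.8 and 22.3 in the control-labelled libraries (exact permutation p = 0.8, also 0.8 adjusted). Here control-labelled library 3 was the lowest of all 6 and the other control-labelled libraries were the highest. miR-1b-5p over miR-1a-3p was at least 0.999 in every library (exact permutation p = 0.2, 0.333 adjusted). miR-1a-1-5p had fewer than 10 counts in 2 libraries, and its ratio was not formed.

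Another pair of ratios was taken after their values had been seen, and is given without a test. miR-206-3p and miR-133b-3p are described as made from a shared transcript, which was not tested here. Their ratio was 1.23, 4.32 and 5.83 in the SCI-labelled libraries, against 11.6, 8.05 and 8.07 in the control-labelled ones. These groups did not overlap. The ratio carries the uncertain level of miR-133b-3p, whose reads could be split with miR-133a-3p. miR-499-5p over miR-133a-3p was 0.147, 0.103 and 0.141 in the SCI-labelled libraries, against 0.198, 0.112 and 0.0212 in the control-labelled ones, with control-labelled library 3 the lowest.

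**Figure D4:**
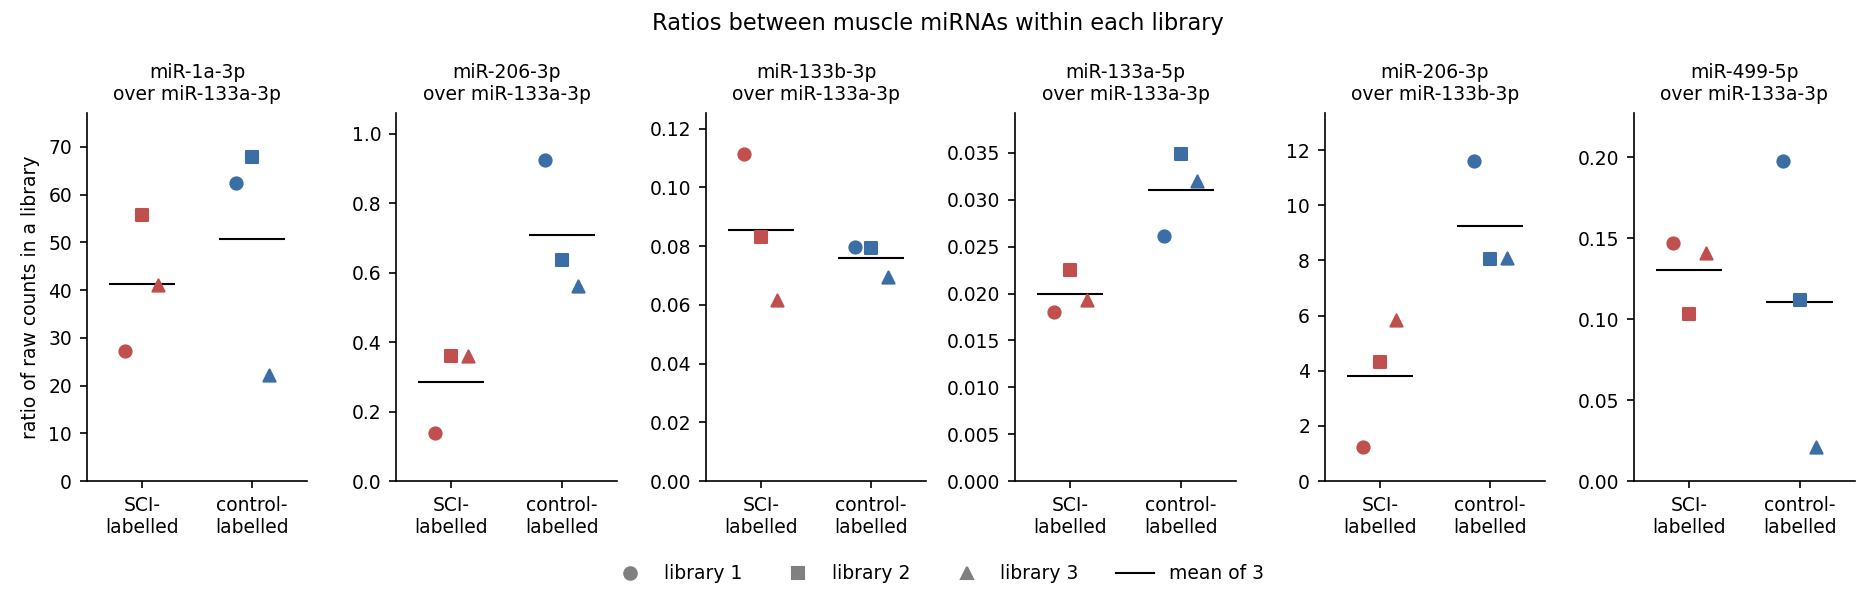
Ratios of raw counts between pairs of muscle miRNAs within each library, from 0 upwards, with SCI-labelled libraries on the left, control-labelled ones on the right and lines at the mean of 3. The groups separate for miR-206-3p over miR-133a-3p, miR-133a-5p over miR-133a-3p and miR-206-3p over miR-133b-3p, and overlap for the others.

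Muscle also holds miR-486 and miR-378a, which are made elsewhere too, miR-486 above all in red cells. Of the 5 rows of these that were in the table, 4 passed edgeR's test as lower in the SCI-labelled group, where 23.1% of all tested rows were lower, 0 were higher, and 1 did not pass. The median log2 fold change of the 5 was -3.54, and 3 of the 4 calls are miR-486 rows that stand for the same signal. miR-486a-5p was at 263, 409 and 555 CPM in the SCI-labelled libraries, against 5294, 6926 and 2356 CPM in the control-labelled ones, with control-labelled library 3 the lowest of its group. miR-486a-3p and miR-486b-3p had nearly the same counts. The red cell miRNA miR-451a, at 2009 to 4544 CPM in the SCI-labelled and 6411 to 26645 CPM in the control-labelled libraries, was likewise lowest of its group in library 3.

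miR-378a-3p, which lies in the Ppargc1b gene of energy metabolism, was at 472, 757 and 712 CPM in the SCI-labelled libraries, against 1923, 1607 and 2546 CPM in the control-labelled ones. Its level was 3.13-fold lower with the SCI label (log2 -1.65, standard error 0.26; edgeR adjusted p = 0.00157). Its passenger arm miR-378a-5p, at 7.19 to 7.48 CPM in the SCI-labelled and 10.9, 6.70 and 27.0 CPM in the control-labelled libraries, did not pass (adjusted p = 0.112 by edgeR). Like miR-133a-3p it was nearly constant in the SCI-labelled group and highest of all 6 in control-labelled library 3. Of the other arms of the myomiR hairpins, 8 were in the table and 0 passed the filter, none with more than 9 counts in a library.

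Among the 261 rows outside the muscle lists averaging 50 CPM or more, the 5 most like miR-133a-3p were miR-582-3p, miR-29c-3p, miR-219b-3p, miR-219a-5p and miR-124-3p. The rows of miR-219b-3p and miR-219a-5p had nearly equal levels in every library. Likeness was Pearson's correlation of log2(CPM + 1) over 6 libraries, which share their depth scaling, and r was 0.936 to 0.977 with Spearman's rho of 0.771 to 0.943. Without control-labelled libraries 3 and 1, the farthest from the median of miR-133a-3p, r was 0.617 to 0.916 over 4 libraries. Likeness of this kind takes no account of the size of a change. Against the mean of control-labelled libraries 1 and 2, library 3 held 1.45 times as much miR-582-3p and 2.88 times as much miR-29c-3p. The ratio was 2.90 for miR-124-3p, 4.53 for miR-219a-5p and 4.60 for miR-219b-3p, against 10.5 for miR-133a-3p. miR-124-3p, a neuron miRNA, was at 798, 756 and 812 CPM in the SCI-labelled libraries, against 660, 725 and 2008 CPM in the control-labelled ones. Members of the neuron list differed in this: miR-128-3p (3733 CPM) and miR-129-5p (976 CPM) were lowest of all 6 in control-labelled library 3. miR-219a-5p, the oligodendrocyte miRNA, was at 139, 91.0 and 98.9 CPM in the SCI-labelled libraries, against 69.7, 78.2 and 335 CPM in the control-labelled ones. The oligodendrocyte list of 4 as a whole took 1.05% of counts in control-labelled library 3, against 0.984% and 1.20% in libraries 1 and 2, and 1.03% to 1.12% in the SCI-labelled group. Its most abundant member, miR-219a-2-3p, was at 8757 to 9811 CPM in the SCI-labelled libraries, against 9008, 10273 and 7013 CPM in the control-labelled ones, lowest in library 3. miR-124-3p and miR-219a-5p were highest in control-labelled library 3, as were 7 of the 8 tested muscle miRNAs, counting miR-1b-5p, and 22.3% of all tested rows. Within the muscle miRNAs the correlation with miR-133a-3p was 0.991 for miR-1a-1-5p, 0.974 for miR-133b-3p, 0.954 for miR-133a-5p, 0.890 for miR-1a-3p, 0.750 for miR-206-3p and 0.408 for miR-499-5p.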

How the data were processed

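Small RNA from 6 cords was sequenced after library preparation from 3 µg of total RNA with the NEBNext small RNA kit, per the labels' protocols. The authors deposited raw read counts per mature miRNA without normalization, and a TPM column for each library. These deposited TPM values equal CPM computed on the column total, with a largest gap of 2.74e-05, and hold no length term. Bowtie and mm10 are named in the submitters' processing notes, with no version. The sources used here do not give how strand, mismatches and reads with several matches were treated. All 12 value columns were matched to samples by the descriptions.

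The count table went through edgeR 4.0.16 (R 4.3.3): filterByExpr with a minimum count of 10 (614 rows kept), TMM scaling, and the quasi-likelihood test in its robust form on a model of group alone. Benjamini-Hochberg adjustment ran over all 614 rows, and adjusted p under 0.05 was called. A standard error is the absolute log2 fold change divided by the root of its F statistic. Shares and ratios were compared by exact permutation tests (scipy 1.17.1). Alternatives were other scalings, no filter, DESeq2 1.42.0, limma 3.58.1 voom with quality weights, the replicate number as a block, miR-1b-5p left out and each library left out.

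All 9 muscle miRNAs are named, and likeness was ranked over rows of at least 50 CPM. The members, lists and tests were chosen with earlier results of these data known, and the ratios without a test and the description of control-labelled library 3 after seeing their values. All pairs of libraries differed by more than sampling noise, so each counts once.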

Additional observations from a re-analysis of the deposited data

How the results depend on the processing

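The number of muscle miRNAs called lower in the SCI-labelled group was 0 under all 15 alternatives. The number called higher was 1 in the main test, 0 with library totals only, and 0 to 4 when 1 library was left out. Over all tested rows, 100 were called higher and 142 lower, and 54 to 152 higher and 87 to 179 lower when 1 library was left out, the extremes being without SCI-labelled library 3 and without control-labelled library 3. Without SCI-labelled library 1 there were 63 higher. limma voom with quality weights turned the sign of 6 muscle miRNAs to positive, counting miR-1b-5p, the copy of miR-1a-3p. The log2 fold changes were 0.84 for miR-133a-3p, 0.15 for miR-133a-5p, 0.84 for miR-133b-3p, 0.95 for miR-1a-1-5p, and 0.31 for both miR-1a-3p and miR-1b-5p. With 1 library left out, the log2 fold change ran from -1.30 to 1.28 for miR-133a-3p, -1.97 to 0.64 for miR-133a-5p, -1.03 to 1.38 for miR-133b-3p, -0.62 to 1.42 for miR-1a-1-5p, and -0.59 to 0.62 for miR-1a-3p and miR-1b-5p. Each positive end is without control-labelled library 3. The log2 difference in the summed share was -0.17, and -0.68 to 0.55 with 1 library left out. For miR-1a-3p over miR-133a-3p it was -0.20, and -0.71 to 0.090. For miR-133b-3p over miR-133a-3p it was 0.13, and -0.084 to 0.34. The scaling by RLE, upper quartile or without the muscle rows changed no sign or call of a muscle miRNA.

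The labels give both groups replicate numbers 1 to 3, but same-numbered libraries did not deviate together from their group means, with correlations over rows of -0.26, 0.17 and -0.18, so the numbers were not taken as pairs. With the replicate block, miR-133a-3p stood at 0.21, miR-133b-3p at 0.31 and miR-1a-1-5p at 0.14. The block fit called 78 rows higher and 112 lower, and 1 muscle miRNA, miR-499-5p, higher. Depth limits miR-208b-3p and the passenger arms.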

Other observations

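In control-labelled library 3, 12 rows outside the muscle miRNAs also reached 3 times the mean of control-labelled libraries 1 and 2. The most abundant were miR-219a-5p, at 335 CPM there (4.53 times), and miR-219b-3p, at 331 CPM (4.60 times). These rows had nearly equal levels in every library, and whether they are separate signals was not tested. miR-378a-5p, an arm of a miRNA that muscle also makes, reached 3.07 times at a mean of 11.1 CPM over the 6 libraries. The other 9 had a mean under 10 CPM.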
